A study of Mus musculus with 20 samples.

Results

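Tst was described here across liver and brown adipose tissue (BAT, the heat-producing fat depot) of 2 mouse lines. Its members were all clones paired with Tst alone in the supplied array annotation. That rule found 1 clone, number 25628, of 15360 clones on the 2 array designs, and 1 gene of 6981. The clone was printed as 2 spots on the second design, and Tst was not measured on the first. The gene itself was chosen by its BAT ratio on the second design, so that ratio is given as a description with no test.

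The data were 20 hybridisations of RNA pools on spotted cDNA arrays with 2 colours, in which each array gives a ratio of its dyes. Fob3b mice have the obese F line as background and, at an obesity locus of that name on chromosome 15, alleles of a lean selection line; plain F mice served as their comparator. For each tissue and line there were 2 RNA pools. How many animals a pool held, and their age and sex, is not known here, so p-values measure the spread between pools, not between animals. On the second design limma drew most of that spread from the other clones (7.63 prior and 1 residual degrees of freedom). Its p-values and intervals there are thus not the spread of Tst alone. The second design held BAT Fob3b pool 1 against F pool 1 in both dye orientations (2 arrays, 1 pool pair) and liver Fob3b pools 1 and 2 against F pools 1 and 2 in both orientations (4 arrays, 2 pool pairs). It also held 2 liver arrays that crossed pool numbers (1 against 2) between lines, and 2 with pool 1 and pool 2 of a single line.

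Some limits apply to every value below. The free-text descriptions of both BAT slides on the second design name the F line in both channels, while their channel labels name the Fob3b line in one of them. The channel labels were used. If they are wrong on these slides, the BAT signs of the second design could turn while those of liver stay. Which dye stands above the other in the deposited ratio is unstated. With red over green, a negative value means less RNA in Fob3b than in F mice; with green over red it means more, and every sign below turns with it. The logarithm was read as base 2, on which the fold sizes depend. Ratios are relative to the median spot of each array. Without that centring the median clone of the second design lay at -0.36 in BAT and -0.37 in liver, a shift that applies alike to every clone of the tissue. Ratios show no absolute level, so neither the tissue labels nor the signal over background could be checked, and the number of arrays limits the precision. In pooled tissue, fewer cells of a type and less RNA per cell cannot be told apart.

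Tst encodes thiosulfate sulfurtransferase, or rhodanese, an enzyme of the mitochondrial matrix that transfers sulfur from thiosulfate to acceptors such as cyanide or glutathione. It works beside the mitochondrial pathway that oxidises hydrogen sulfide, in which Sqor takes up sulfide, Ethe1 oxidises the persulfide formed and Suox turns sulfite into sulfate. Liver is rich in the enzyme. In fat, published work on mouse lines selected for leanness has described Tst as an adipocyte gene with more RNA in lean animals, and that work was not used to choose a sign here. No sequence of Tst or of the clone was used here.

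In BAT, Tst had the most extreme ratio of the 7680 clones on the second design, on the negative side of both arrays. With the Fob3b pool in red its spots stood at -1.70 and -1.70, and with the Fob3b pool in green at -1.35 and -1.51. The array values were thus -1.70 and -1.43, and the deposited ratio changed sign when the dyes were exchanged, with spots at -2.12 and -2.11 (Fob3b in red) and at 1.65 and 1.81 (Fob3b in green) before centring and turning. The mean over the orientations was -1.57 (SD 0.19 between the 2 arrays of 1 pool pair), a 2.96-fold difference. There is no second BAT pool pair for Tst, so this difference has no replicate check, and no BAT array set pool 1 against pool 2 of a line.

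On each of the BAT arrays Tst ranked lowest of the 7680 clones. The lowest other clone stood at -1.16 with the Fob3b pool in red, and at -1.30 with it in green. Averaged over the arrays, the next clone was that of Sdc4, a cell-surface proteoglycan, at -1.07, which leaves a gap of 0.50 to Tst. The third clone followed 0.12 behind Sdc4. On the positive side the farthest clone had 1.51 and no single gene, and the farthest annotated clone was that of Me1, the malic enzyme, at 1.20. Past 1.5-fold with 1 sign on both arrays there were 128 clones (1.67%) on the negative side and 46 (0.599%) on the positive side. Tst and the clone at 1.51 were the 2 clones past 2.5-fold. These ranks repeat what chose the gene and support nothing further.

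**Figure D1:**
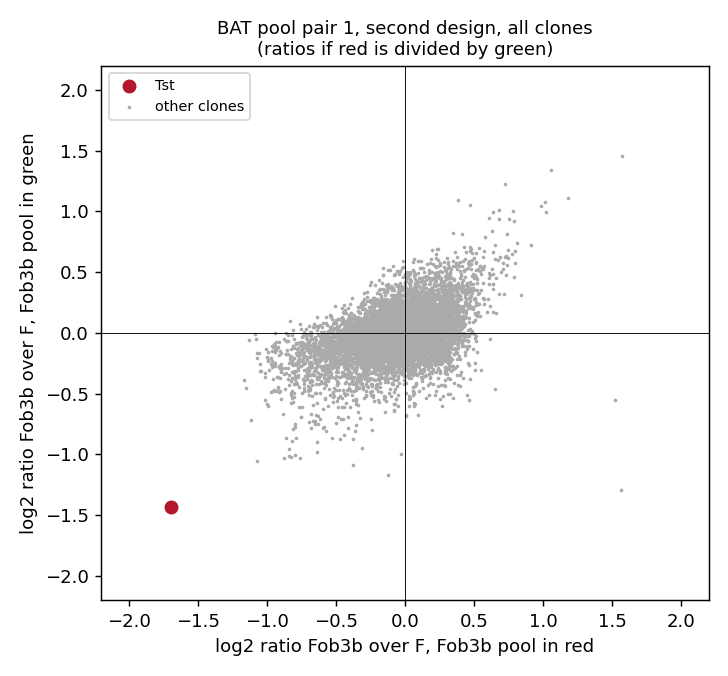
Log2 ratios of Fob3b over F for the 7680 clones in BAT pool pair 1, with the Fob3b pool in red on the horizontal axis and in green on the vertical axis, if red is divided by green. The red point for Tst lies at -1.70 and -1.43, apart from the grey points of the other clones.

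The technical values around the clone were as follows. Its spots differed by 0.00 and 0.16 on the BAT arrays, where the median clone differed by 0.10 and 0.07 between its spots (Fob3b pool in red, then in green). The spots were printed 160 rows apart in a single block. The 10 clones within 5 printing positions of Tst had BAT ratios from -0.13 to 0.33, with a median of 0.02. The other 159 clones of the block ran from -0.59 to 0.76. None of these came near the mean value of Tst, and neither did the mean of any other clone on the negative side of the design. With the Fob3b pool in green alone, the lowest other clone stood at -1.30, beside -1.43 for Tst. The mean of the 2 orientations before turning, which holds the dye bias, was -0.13 for Tst in BAT.

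In liver, Tst lay on the positive side of all 4 direct arrays, with a far smaller ratio that did not pass the test. Pool pair 1 gave 0.27 (Fob3b labelled red) and 0.34 (Fob3b labelled green), and pool pair 2 gave 0.08 and 0.26 in the same order. The pool pairs thus stood at 0.30 and 0.17. Their mean was 0.24 (moderated SE 0.08, n = 2 pool pairs), a 1.18-fold difference, with a 95% interval from 0.04 to 0.43. The unadjusted limma p was 0.0217 and the adjusted p 0.355 with limma and Benjamini-Hochberg adjustment over 7680 clones. An adjusted p under 0.05 was reached by 29 clones (0.378%), 2 of them on the positive side (0.026%). An unadjusted p under 0.05 was reached by 768 clones (10%), of which 152 (1.98%) were positive. In signed order Tst stood at place 92 of 7680 from the positive end, and by absolute size at place 563. Without centring the liver value of Tst was -0.13, beside a median clone at -0.37, so its positive sign holds only relative to the other clones. With each printing block centred on its own median the value was 0.35. In its own block the other 159 clones had a liver median of -0.11 and a highest value of 0.17, below that of Tst.

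**Figure D2:**
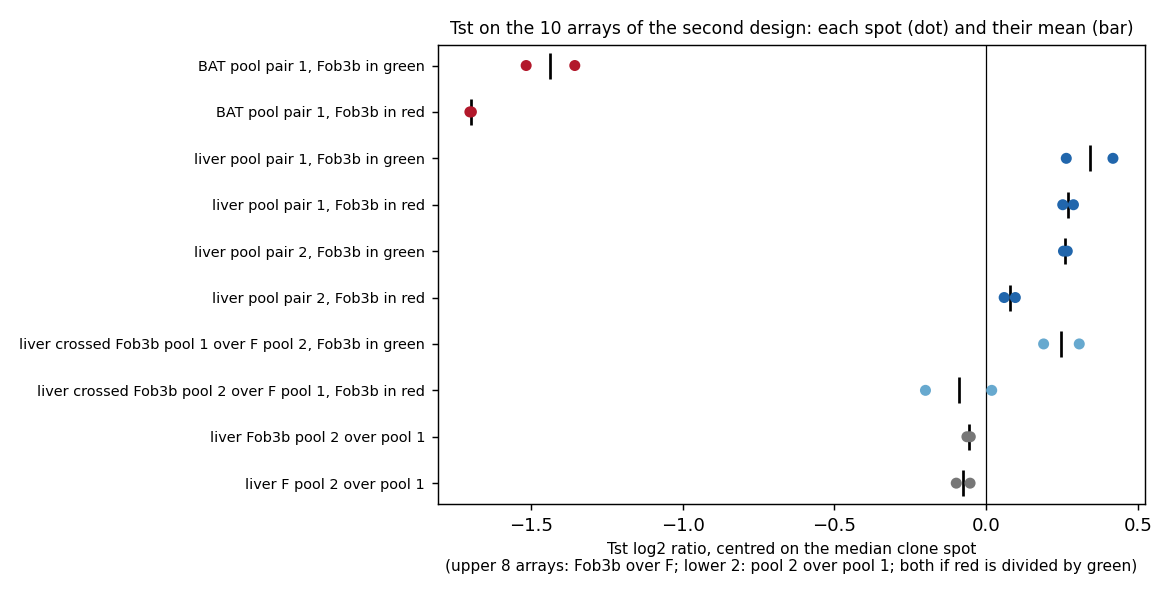
Tst on the 10 arrays of the second design as centred log2 ratios, with a dot for each of the 2 spots and a bar for their mean. The BAT arrays lie at -1.70 and -1.43 and the 4 direct liver arrays between 0.08 and 0.34, relative to the median spot (the liver mean is -0.13 without centring).

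Further liver arrays compared the same 4 pools in other pairings. Fob3b pool 1 over F pool 2 gave 0.25, with the Fob3b pool in green. Fob3b pool 2 over F pool 1 gave -0.09, with the Fob3b pool in red and its spots at 0.02 and -0.20. The crossed arrays therefore did not share a sign. Each was hybridised in 1 orientation, so a dye bias does not cancel in them. Within a line, pool 2 over pool 1 gave -0.06 for the Fob3b line and -0.08 for the F line, each again in 1 orientation. These values are about the size of the dye term fitted below, so they do not settle how close the pools lay. From the direct arrays and the F-line array, 0.38 and 0.09 would follow for the crossed pairings, above the measured 0.25 and -0.09. A least-squares fit of the 8 liver arrays, with a level for each pool and a dye term, put Fob3b pools 1 and 2 at 0.14 and 0.04 and F pools 1 and 2 at -0.09 and -0.10. The lines then differed by 0.18, with a residual SD of 0.12 and a dye term of -0.06. With the crossed arrays added as further pool pairs, limma gave 0.16 (SE 0.08, adjusted p 0.9997). That fit counts the crossed pairings as independent replicates although they reuse the same 4 pools, and a dye bias stays in them.

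Tst thus stood on opposite sides in BAT and liver: at -1.57 in BAT pool pair 1 and at 0.24 in liver. The liver pool pair of the same number had 0.30, and the labels do not say whether it came from the same animals. The difference between the tissues was not tested, since the BAT ratio chose the gene and rests on 1 pool pair. The BAT sign also rests on the channel labels of the BAT slides, which their descriptions contradict. Of the 4075 genes on the design, 30 (0.736%) were past 1.5-fold on the negative side in BAT and 32 (0.785%) on the positive side. Of the 30, Tst and Net1 (0.0491% of all genes) were negative on both BAT arrays and positive on all 4 direct liver arrays, relative to the median spot. Net1, an exchange factor for the GTPase RhoA, had -0.68 in BAT and 0.16 in liver, and like Tst it was negative in the liver mean without centring. All 4 liver arrays were positive for 403 genes (9.89%). Over the 7680 clones, which share printing position and array design, the BAT values and the liver means correlated at 0.45, a description across clones that are not replicates.

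**Figure D3:**
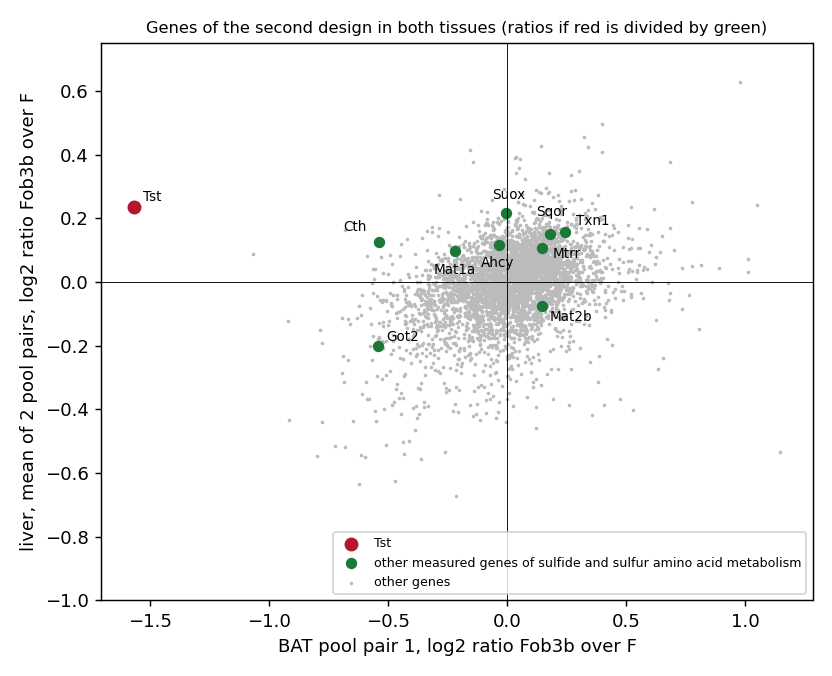
Each point is a gene of the second design, with its log2 ratio of Fob3b over F in BAT pool pair 1 on the horizontal axis and in liver on the vertical axis, if red is divided by green and relative to the median spot. Tst (red) lies alone at -1.57 and 0.24, and the 9 other measured genes of sulfur metabolism (green) lie between -0.54 and 0.24 in BAT; without centring the liver value of Tst is -0.13.

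Genes with a pattern like that of Tst were sought among the 61 other genes past 1.5-fold in BAT, by Pearson's r over the 8 arrays that hold both lines. The arrays share pools, the genes were chosen on the 2 BAT arrays, and these lie far from the other arrays for Tst. The highest values were 0.97 for Net1, 0.95 for Sdc4, 0.92 for Rab8a, a GTPase of vesicle traffic, 0.90 for Slc12a2, a sodium, potassium and chloride cotransporter, and 0.84 for Cish, an inhibitor of cytokine signalling. Their BAT ratios were -0.68, -1.07, -0.61, -0.59 and -0.92, all closer to 0 than that of Tst. Their liver ratios were 0.16, 0.09, -0.04, 0.08 and -0.12. The most opposed genes were Epb41l2, a protein of the membrane skeleton, Psph, the last enzyme of serine synthesis, and the small heat shock gene Cryab. They had r of -0.98, -0.97 and -0.97 and BAT ratios of 0.68, 0.62 and 0.63. Each of these 8 genes was measured by 1 clone.

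The other measured genes of sulfide and sulfur amino acid metabolism stood nearer the median in BAT than Tst, as did every other clone of the second design. The list held 39 genes under current symbols, of which 23 were measured on either design and 10, Tst included, on the second. On that design the 9 others had a median of 0.00 in BAT, beside a median of 0.03 over all genes. Of these 9, 0 were past 1.5-fold, near the share of all genes (0.736% on the negative side and 0.785% on the positive side). The 4 positive and 5 negative values among them are relative to the median spot, and without centring all 9 were negative, as was the median clone. In sulfide oxidation itself, Sqor had 0.18 and Suox 0.00 in BAT. Ethe1 and Mpst, which encodes the mercaptopyruvate sulfurtransferase related to Tst, were not analysed here.

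The pair that came nearest to Tst in BAT was Cth and Got2, at -0.54 each. Cth encodes cystathionine gamma-lyase, which makes cysteine and can release hydrogen sulfide. Its gene mean was -0.85 where Fob3b was labelled red and -0.23 where it was labelled green, and its 2 clones stood at -0.48 and -0.59. Got2, the mitochondrial aspartate aminotransferase, which can pass on the amino group of cysteine, had -0.69 and -0.40 in the same orientations. In the methionine cycle, the synthetase genes Mat1a and Mat2b had -0.22 and 0.15, Ahcy, which splits S-adenosylhomocysteine, had -0.03, and the reductase gene Mtrr had 0.15. Txn1, the cytosolic thioredoxin, had 0.24. The 3 clones of Mat2b did not share a sign in BAT, with -0.14, 0.20 and 0.39.

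In liver the same 10 genes, Tst included, had a median of 0.12, with 8 positive (0 without centring), beside a median of 0.00 over all genes. Without Tst, 7 of the 9 were positive, with a median of 0.12, where 51.4% of all genes were positive. Of these members 0 passed limma after adjustment (7 of 4075 genes did, 0.172%), and 3 had an unadjusted p under 0.05, where 402 genes (9.87%) did: Tst at 0.24, Suox at 0.22 and Got2 at -0.20. Suox gave 0.11 in pool pair 1 and 0.32 in pool pair 2, and Got2 gave -0.12 and -0.28. Sqor had 0.15, Txn1 0.16 and Cth 0.13, although the Cth clones stood apart at 0.37 and -0.11. Without centring the median of the list was -0.24, beside the shift of the median clone to -0.37.

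On the first design 14 genes of the list were measured, in 2 pool pairs of each tissue. In BAT 10 of the 14 were positive (14 without centring), with a median of 0.10 and a range from -0.12 to 0.37, beside a median of 0.03 over all genes. Without centring the median clone there lay at 0.30. With limma 0 of 14 passed after adjustment (0 of 3838 genes, 0%), and 0 had an unadjusted p under 0.05, where 39 genes (1.02%) did. By array, pool pair 1 gave list medians of 0.10 (Fob3b in red) and 0.08 (Fob3b in green), and pool pair 2 gave 0.25 and -0.21. Without the array of pool pair 2 with Fob3b in red the median was -0.042 and 6 of 14 were positive. Without its dye swap the median was 0.17 and 12 were positive. Both alternatives, chosen after seeing the data, leave the dye orientations unbalanced. The members with the largest ratios were Ahcyl1, a relative of Ahcy, at 0.37, Txn2, the mitochondrial thioredoxin, at 0.31, and Ado, which oxidises cysteamine, at 0.25. Ahcyl1 was positive on all 4 BAT arrays, whereas Txn2 had 0.51 and 1.09 with Fob3b in red and -0.12 and -0.23 with Fob3b in green. Cysteine breakdown was represented by Cdo1 at 0.10 and Csad at 0.23, transsulfuration by Cbs at 0.11, and glutathione synthesis by Gclc at -0.11 and Gss at 0.12.

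In liver on the first design all 14 were negative, with a median of -0.25, beside -0.02 over all genes, and 0 passed limma after adjustment (0%). Cdo1, the cysteine dioxygenase, at -0.64 was the 1 member with an unadjusted p under 0.05, where 104 genes (2.71%) had one. A single array lay far from the others. With the Fob3b pool 1 in green the list had a median of -1.24, while the other 3 liver arrays gave 0.02, 0.12 and -0.10. Without that array the median was 0.032, with 7 of the 14 negative. This alternative was chosen after seeing the data and leaves the dye orientations unbalanced. Ahcy was the member read on both designs, and with the same pool labels it had -0.31 in liver on the first (SE 0.25) and 0.12 on the second (SE 0.08).

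A list of mitochondrial antioxidant and iron-sulfur cluster genes held 7 measured members on the second design. In BAT 4 were positive (1 without centring), with a median of 0.14 and a range from -0.45 to 0.41, where 43.9% of all genes were negative. Past 1.5-fold there were 0, near the share of all genes (0.736% on the negative side and 0.785% on the positive side). The ends of that range were Aldh2, the mitochondrial aldehyde dehydrogenase, at -0.45 and Hspa9, the mitochondrial Hsp70 chaperone, at 0.41, with the peroxiredoxin gene Prdx3 at 0.31. In liver their median was 0.04, 0 of 7 passed limma after adjustment (0.172% of all genes did), and Aldh2 at -0.24 was the 1 with an unadjusted p under 0.05, near the share of all genes (9.87%). On the first design the 5 measured members had a median of 0.19 in BAT and -0.25 in liver, with 0 past the adjusted threshold (0% of all genes) or the unadjusted one (1.02% of all genes in BAT and 2.71% in liver). In each tissue a single array lay far from the others. In BAT the arrays with Fob3b in red had 0.87 (pool pair 2) and 0.07 (pool pair 1). Those with Fob3b in green had -0.23 and -0.21 in the same order, so the sign followed the dye. Without the array at 0.87 the median was -0.021. In liver the array of pool pair 1 with Fob3b in green had -0.97, beside 0.09, -0.18 and 0.20, and without it the median was -0.0033. Both alternatives were chosen after seeing the data. Each leaves the dye orientations unbalanced, so a dye bias does not cancel in it and it cannot show what set the median.

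The genes around Tst on chromosome 15 were looked at next, since Tst lies on the chromosome of the Fob3b locus. In the RefSeq gene table of assembly GRCm38.p6, which was used for order alone, Mpst is the next protein-coding gene to Tst on one side. Of the 50 protein-coding genes within 25 places of Tst, 7 were measured on each design, 14 in all. In BAT pool pair 1 on the second design, 6 of the 7 neighbours were positive (0 without centring), with a median of 0.11 and values from -0.06 for Rac2, a GTPase of blood cells, to 0.21 for Nol12. Of all genes, 43.9% were negative there. Past 1.5-fold there were 0 neighbours, near the share of all genes (0.736% on the negative side and 0.785% on the positive side). The nearest measured genes were C1qtnf6, 5 places away, at -0.01 in BAT on the first design, Rac2, 7 places away, and Eif3d, a subunit of a translation initiation factor, 8 places away, at 0.12.

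On the first design the BAT ratios of the 7 neighbours ran from -0.15 for Eif3l to 0.39 for Triobp, with Lgals1, the galectin-1 gene, at 0.32. With limma 0 of them passed after adjustment (0% of all genes in either tissue), and 0 had an unadjusted p under 0.05, where 1.02% of all genes in BAT and 2.71% in liver had one. In liver on the second design the 7 neighbours had a median of 0.08, with 5 positive (0 without centring). Card10, a scaffold of NF-kappaB signalling, had 0.25 there, with an unadjusted limma p of 0.0119 and an adjusted p of 0.285, and stood at 0.05 in BAT. It was the 1 neighbour of 7 with an unadjusted p under 0.05 there, near the share of all genes (9.87%). No measured neighbour came near the mean BAT ratio of Tst, but neither did the mean of any other clone on the negative side of the second design. The comparison therefore says nothing particular about these neighbours, of which 7 were read on the first design alone. Genes between Tst and C1qtnf6 were not analysed here.

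**Figure D4:**
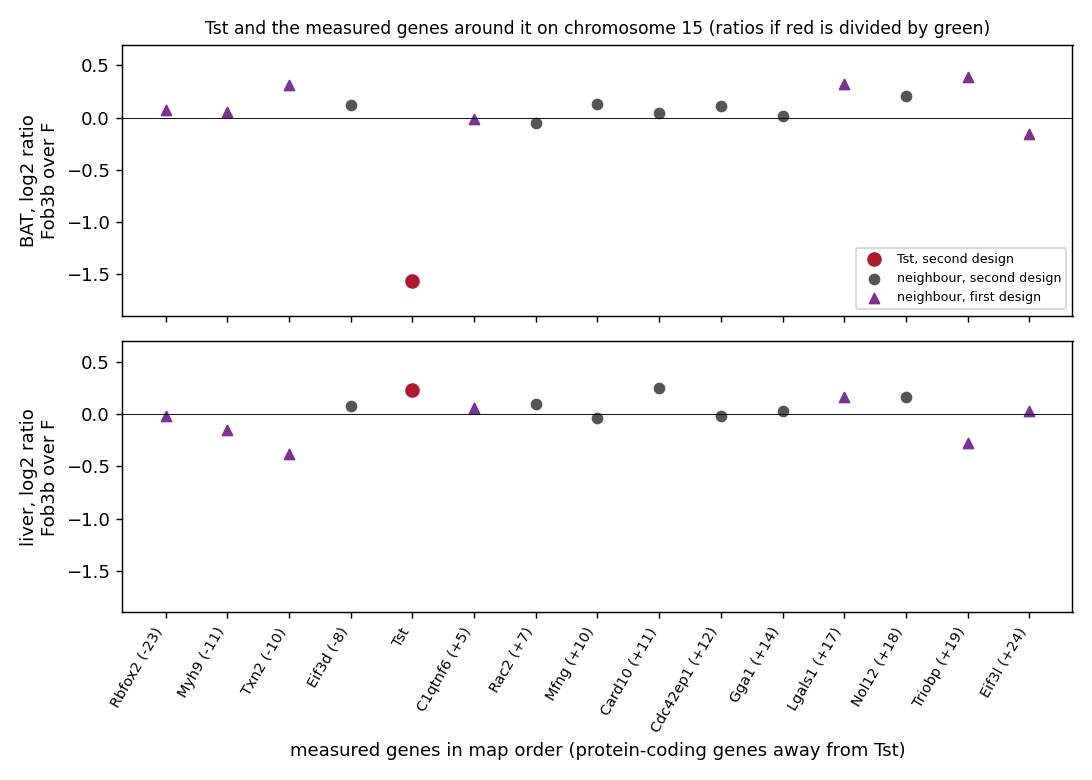
Log2 ratios of Fob3b over F, if red is divided by green and relative to the median spot, of Tst (red) and its 14 measured neighbours in map order, in BAT above and liver below. Grey circles are the second design and purple triangles the first; in BAT the neighbours lie between -0.15 and 0.39 and Tst at -1.57, and in liver Tst lies at 0.24 (-0.13 without centring).

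Markers of cell types were sparse on the second design, and their part in the ratio of Tst was not tested. In BAT pool pair 1 the brown adipocyte markers measured were Elovl3 at -0.06 and Prdm16 at -0.15, 2 of 8 listed. The general adipocyte list had 1 of 10 genes, the glucose transporter gene Slc2a4 at 0.65. Skeletal muscle had 2 of 10, Tpm2 at 0.73 and Mylpf at 0.69, both opposite in sign to Tst on the same slides. On the first design pool pair 1 gave -0.89 for Tpm2 and -0.58 for Actn3, the sign that Tst had on the second. Both had an unadjusted limma p under 0.05 over the 2 pool pairs there (1.02% of all genes did), while neither passed after adjustment (adjusted p 0.9998 each). Tpm2 thus turned sign between the designs in the BAT pool pair of the same label. Its arrays gave -0.87 and -0.91 on the first design and 0.63 and 0.84 on the second (Fob3b in red, then in green). Descriptions and channel labels of the second-design BAT slides conflict, and the cause of the turn was not tested. Erythroid markers had 2 of 3 on the second design, Hbb-b1 at 0.01 and Alas2 at -0.29. Hepatocyte markers, of interest since liver is rich in Tst, were measured on the first design alone, 5 of 12, and in BAT pool pair 1 they had -0.09 for Alb, -0.47 for Apoa1, -0.24 for Ttr, 0.62 for Fga and -0.17 for Tdo2. The macrophage list had 1 of 5 there, Lyz2 at -0.18, and the general adipocyte list had Lpl at -0.48.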

How the data were processed

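The authors deposited a log ratio for every spot, read here as log2. Neither its base nor its numerator is stated in the labels, nor how the arrays were normalized. Array medians ran from -0.82 to 1.40, so they had not been centred. Each design had 17280 spots, of which 1920 control spots were left out. Accessions with 2 spots had them 160 rows apart in all 5129 cases on the second design and 4976 on the first, and this spacing paired the spots of all 7680 clones. Clones were named with the supplied array annotation.

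Arrays were centred on the median spot, spots averaged per clone, ratios turned to Fob3b over F, and dye swaps of a pool pair averaged, so n was 2 liver pool pairs. Clones, and for lists genes, were tested in R 4.3.3 using limma 3.58.1, BAT and liver of a design fitted together (on the second design 7.63 prior and 1 residual degrees of freedom), two-sided p-values, Benjamini-Hochberg adjustment and a threshold of 0.05. The fit was tested on simulated data. The gene, the lists and the naming rules were chosen with earlier results of these data known. All sulfur members could be named, and of other lists mainly the largest ratios. Further neighbours, Aldh2, Hspa9, Prdx3 and the markers were named after their values were seen.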

Additional observations from a re-analysis of the deposited data

Results flagged for a closer look

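The sign of Tst differed between the tissues on every direct array of the second design. The BAT mean was -1.57, with both arrays negative, and the liver mean was 0.24, with all 4 arrays positive, relative to the median spot of each array (-0.13 in liver without centring). The difference between the tissues was not tested, and BAT was represented by 1 pool pair. The BAT sign rests on channel labels that the slide descriptions contradict.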

How the results depend on the processing

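The BAT ratio of Tst kept its sign under all 8 alternatives, from -1.93 to -1.29: it was -1.93 without centring, where the median clone lay at -0.36, and -1.29 after scaling all arrays to 1 spread. All its BAT spots were negative, so the alternatives with 1 dye orientation or 1 spot could not turn the sign. The ratio had also chosen the gene. Tst stayed the lowest of 7680 clones without centring, with arrays scaled and with printing blocks centred. In liver its value was -0.13 without centring and otherwise 0.16 to 0.35 under the 9 other alternatives with a test. The adjusted limma p ran from 0.225 to 0.9997 over these 10, so it passed under none. Among them, counting each array as a replicate, fitting liver alone and averaging clones per gene could not move the value from 0.24. Nor could the pool number as a replicate block. Fitting liver alone repeated the main fit, p included (adjusted limma p 0.355), because 1 BAT pool pair adds no spread. Leaving out pool pair 1 or 2 gave 0.17 or 0.30, without a test.

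The count of liver clones past the threshold was 29. It was 159 without centring, 2 where each array counted as a replicate, and 0 with printing blocks centred, with arrays scaled and with the crossed pools added (862, 719 and 337 clones at an unadjusted p under 0.05). With the pool number as a replicate block and every array its own replicate it was 88, and Tst had 0.24 with an adjusted p of 0.247. BAT and liver share 1 pool number on this design, and nothing in the labels says that it pairs animals. On the first design the difference of pool pair 1 and 2 correlated at 0.38 between the tissues. The sulfur list in liver had a median of -0.24 without centring on the second design (0.12 with it), and on the first 0.032 without the array of Fob3b pool 1 in green (-0.25 with it). In BAT on the first design, leaving out the array of Fob3b pool 2 in red turned the median of the sulfur list to -0.042 (0.10 with it) and of the mitochondrial list to -0.021 (0.19 with it). Leaving out a single array also leaves the dye orientations unbalanced, and the cause of these changes was not tested. Signal over background is unknown, and BAT pool pair 2 was not measured for Tst.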
